A study of Oryza sativa Japonica Group with 12 samples.

Results

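The auxin genes of rice were followed in 3 F1 hybrids and their 3 parental lines. A gene was included where a symbol or synonym in the annotation began, with or without Os, with IAA, ARF, SAUR, PIN, GH3 or YUCCA and then a number. The annotation held 71 such genes, and 64 of them had a probe set on the array, out of 23837 genes with one. The 64 comprised 28 of 28 *IAA*, 19 of 23 *ARF*, 1 of 1 *SAUR*, 6 of 9 *PIN*, 9 of 9 *GH3* and 1 of 1 *YUCCA* genes. These totals count only loci with such a name, so *SAUR39* and *YUCCA1* do not stand for whole families. *ARF6*, *ARF19*, *ARF21*, *ARF25*, *PIN1A*, *PIN1B* and *PIN1C* had no listed probe set and were not analysed here. Every measured gene had exactly 1 probe set. Some names were shared between genes in the annotation, so that *IAA13* is also listed as *IAA1*, *IAA4* as *IAA20* and *ARF12* as *ARF8*, and each name below stands for 1 locus.

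The plants were *japonica* rice grown in a greenhouse, and whole plants were taken at tillering, with no further treatment. The hybrids were ‘CH7/8’ and ‘CH7/9’, which share ‘CH7’, and the cross of the other 2 parents, ‘CH8/9’, and the parents were ‘CH7’, ‘CH8’ and ‘CH9’, with 2 arrays per line and 12 in all. Each RNA is described as coming from 1 independent plant, the labels name 2 biological replicates per line, and the hybrids are described as weak, short and chlorotic with poor roots, while the parents are not. The question was how far a hybrid differs from its parents, and the parents from each other. Each value below is log2 of the deposited intensity. Since the array is of 1 reference design, a difference in transcript level and a sequence difference under the probes cannot be told apart between lines. In whole plants, fewer cells of a type and less RNA per cell cannot be told apart either.

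Auxin is perceived by a co-receptor that includes an F-box protein and an Aux/IAA protein. Aux/IAA proteins, encoded by the *IAA* genes, bind auxin response factors (ARF) and hold their target genes down through TOPLESS-type co-repressors, and auxin causes their breakdown. Many *IAA*, *SAUR* and *GH3* genes are themselves induced by auxin. *GH3* genes encode enzymes that join auxin to amino acids, *PIN* genes encode efflux carriers that give auxin its direction of flow, and YUCCA enzymes carry out the last step of the main route of synthesis. In rice the pathway is known for crown and lateral root formation, tillering, gravitropism and leaf angle. *GH3.5* is also listed as *JAR1*, which joins jasmonate rather than auxin to isoleucine, and entered by its name alone.

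The array medians lay between 3.45 and 3.64 on the log2 scale. Of the 64 genes, 18 were above the third quartile of every array (5.28 to 5.47), 35 were above the median of every array, and 5 were below the first quartile of every array (2.25 to 2.51). Those 5 were *IAA7*, *IAA16*, *IAA29*, *ARF13* and *PIN2*, the last a carrier of root gravitropism. For each family, the gene of the probe set with the highest mean is given here with its range over the 12 arrays. *IAA17* lay between 9.86 and 10.70, and *ARF4* between 10.01 and 10.42. *SAUR39*, a negative regulator of auxin synthesis and transport in rice, ran between 4.19 and 7.62. *PIN5A* lay between 4.82 and 6.58, *GH3.5* between 7.98 and 9.30, and *YUCCA1*, below the median of every array, between 1.98 and 2.94. These places on the array are those of probe set intensities, which differ in response, and do not order transcript levels between genes.

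Replicates did not lie equally close in all lines. The replicates of ‘CH7/8’ were at least 2-fold apart in 9 of the 64 genes (14.1%, against 9.74% of all genes) and those of ‘CH8’ in 10 (15.6%, against 7.09%). The number was 2 in ‘CH7/9’, 0 in ‘CH8/9’, 2 in ‘CH7’ and 0 in ‘CH9’. After each gene was centred on its mean over the 12 arrays, ‘CH7/8’ replicate 2 correlated at -0.480 with its own replicate across all genes and at 0.595 with ‘CH8/9’ replicate 2. ‘CH7/8’ replicate 1 was closest to ‘CH7’ replicate 2, at 0.269. These are descriptions across genes, which are not independent replicates. In ‘CH8’, replicate 1 was closest to ‘CH7/8’ replicate 2 (0.553), with 0.333 for its own replicate.

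**Figure D1:**
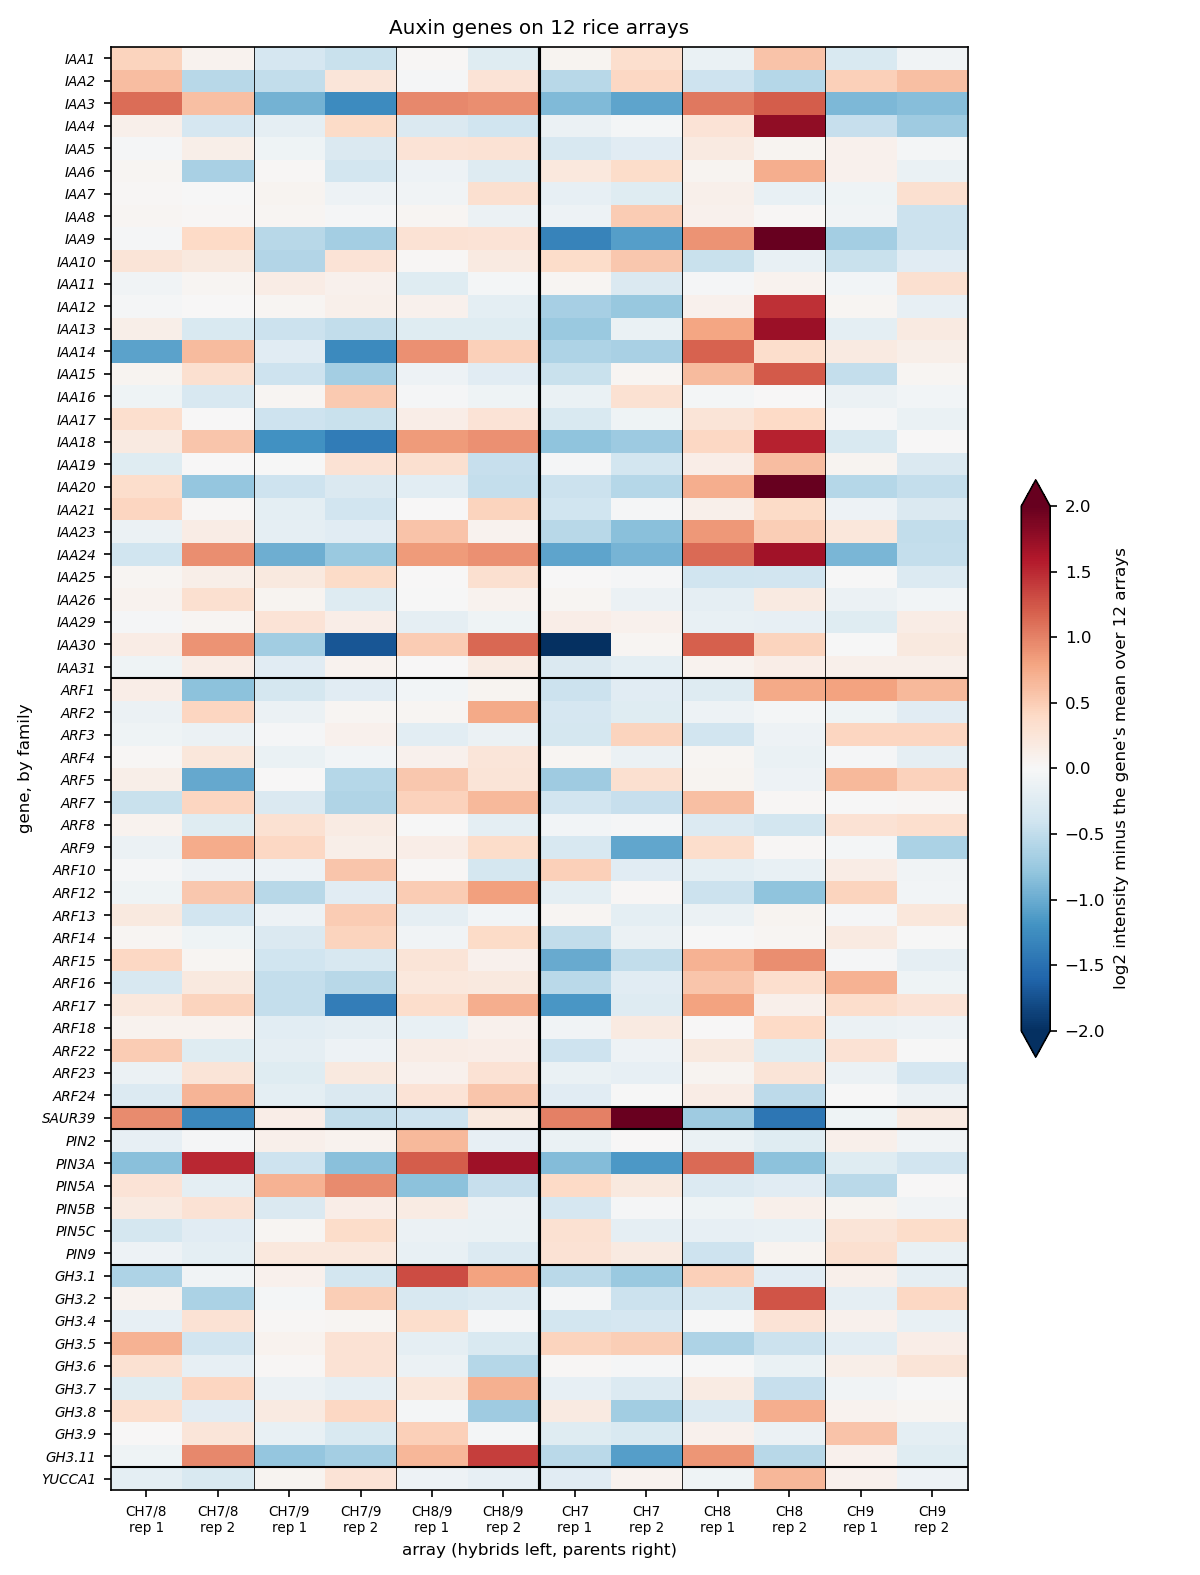
Log2 intensity of the 64 measured auxin genes (rows, by family) on 12 arrays (columns, hybrids left and parents right), as the difference from each gene's mean over the 12 arrays, with the colour scale ending at -2 and 2. *IAA3* is high on all 6 arrays of ‘CH7/8’, ‘CH8/9’ and ‘CH8’, and the columns of the 2 ‘CH7/8’ replicates differ in *PIN3A*, *IAA14* and *SAUR39*.

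*IAA3* (LOC4325890, probe set 15799087), which encodes an Aux/IAA repressor, was high in every line that carries the ‘CH8’ genome and low in every line that does not. Its values were 6.87 and 6.36 in ‘CH7/8’, 6.72 and 6.69 in ‘CH8/9’, and 6.81 and 6.97 in the parent ‘CH8’. They were 4.81 and 4.50 in ‘CH7/9’, 4.86 and 4.70 in ‘CH7’, and 4.86 and 4.91 in ‘CH9’. The 6 arrays with the ‘CH8’ genome thus ran between 6.36 and 6.97 and the 6 without it between 4.50 and 4.91, a gap of 1.45. Across the 64 genes, this was the only gap above 0.5 between these sets of arrays.

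In ‘CH7/8’, *IAA3* was 3.55-fold higher than in ‘CH7’ (log2 difference 1.83, SE 0.19, adjusted p = 0.00849 by limma). It was 3.54-fold higher in ‘CH8/9’ than in ‘CH9’ (1.82, adjusted p = 0.00892). Between parents it was 4.30-fold higher in ‘CH8’ than in ‘CH7’ (2.10, adjusted p = 0.000968) and 4.02-fold lower in ‘CH9’ than in ‘CH8’ (-2.01, adjusted p = 0.00147). Against the parent that shares its high level, ‘CH7/8’ differed from ‘CH8’ by -0.28 (95% interval -0.71 to 0.16) and ‘CH8/9’ differed from ‘CH8’ by -0.18 (-0.61 to 0.25), and both intervals include 0. ‘CH7/9’ differed by -0.13 from ‘CH7’ and by -0.23 from ‘CH9’, and ‘CH9’ by 0.10 from ‘CH7’, none of them called.

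The parent comparisons of *IAA3* kept their call when any 1 array was left out. The call of ‘CH7/8’ against ‘CH7’ was lost without ‘CH7’ replicate 1 (1.91, adjusted p = 0.0768) or ‘CH7’ replicate 2 (1.75, adjusted p = 0.0714), and with only those 2 lines in the fit (1.83, adjusted p = 0.27). It held without ‘CH7/8’ replicate 2, the array unlike its own replicate, at 2.08. The call of ‘CH8/9’ against ‘CH9’ was lost without any 1 of its own 4 arrays, at adjusted p between 0.079 and 0.138, with differences between 1.80 and 1.85. All 4 differences kept their direction and a size above 1.5 in each of these fits.

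Each hybrid that inherits *IAA3* from ‘CH8’ was nearer to ‘CH8’ than to the mid-parent, the mean of its 2 parents. ‘CH7/8’ was 0.78 above it on the log2 scale (95% interval 0.40 to 1.15, unadjusted p = 0.00117) and ‘CH8/9’ was 0.82 above it (0.45 to 1.20, unadjusted p = 0.000805), but neither passed over all probe sets (adjusted p = 0.877 and 0.417). ‘CH7/9’ was at -0.18. On the linear scale, the mean intensity was 99.3 in ‘CH7/8’ against a mid-parent of 73.1, and 104 in ‘CH8/9’ against 74.0. The mean of ‘CH8’ itself was 119, and those of ‘CH7’ and ‘CH9’ were 27.6 and 29.5.

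**Figure D2:**
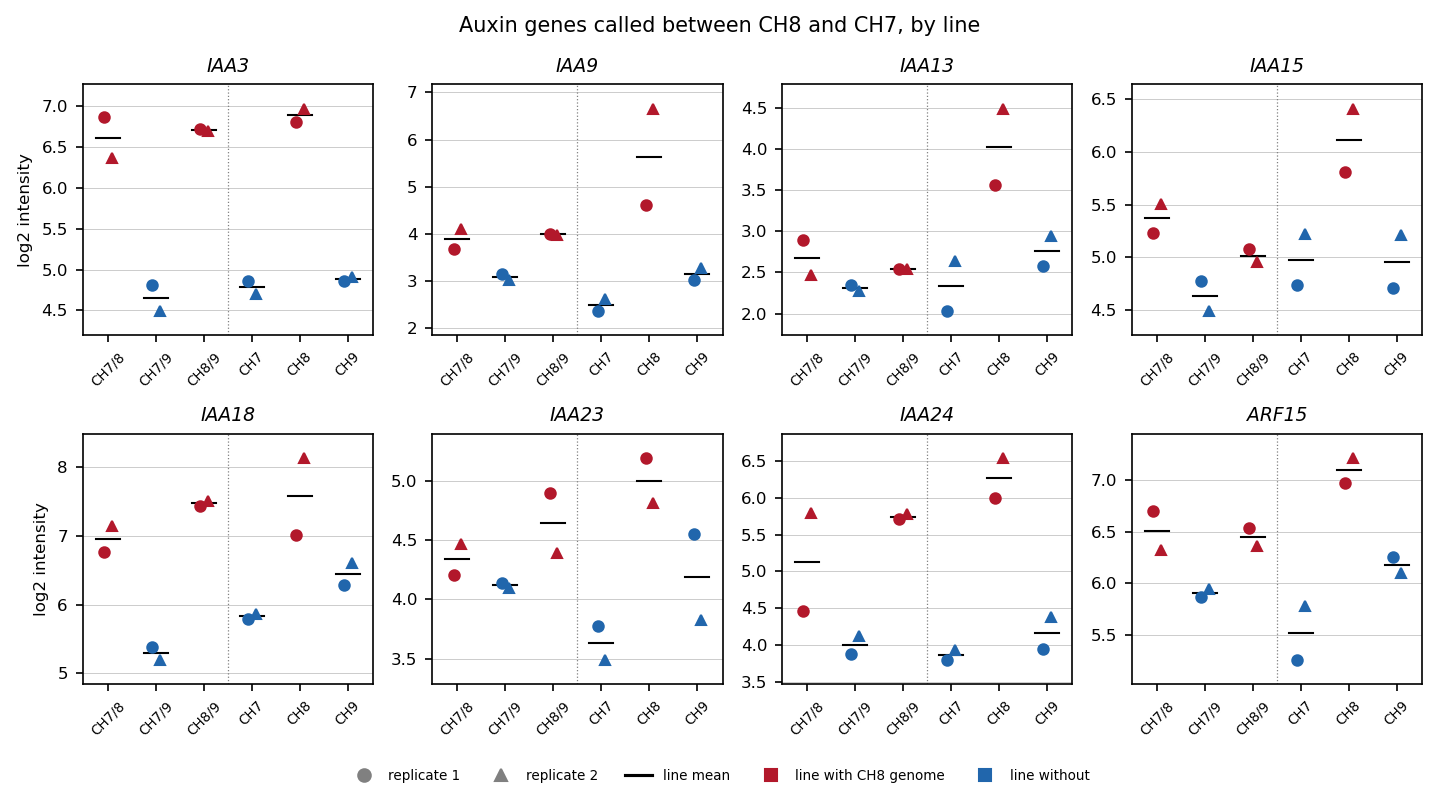
Log2 intensity by array of the 8 auxin genes called higher in ‘CH8’ than in ‘CH7’, with the hybrids left and the parents right of the dotted line. Red marks lines with the ‘CH8’ genome, blue those without, circles replicate 1, triangles replicate 2, and the bar the mean of the line. *IAA3* forms 2 levels with the widest gap between red and blue. *IAA9*, *IAA18*, *IAA24* and *ARF15* also have all red marks above all blue, and *IAA9* and *IAA13* are highest in ‘CH8’.

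The comparison of ‘CH8’ with ‘CH7’ held most of the called auxin genes. Calling a gene required a difference of 2-fold or more with an adjusted p no greater than 0.05. In ‘CH8’, 8 of the 64 genes rose (12.5%) and 0 fell, against 5.5% of all genes called and 2.82% called higher. Of the 8, 7 were *IAA* genes (of 28 measured) and 1 was an *ARF*. Without adjustment, 21 auxin genes reached p under 0.05 on the higher side and 5 on the lower (40.6%), against 26% of all genes. The median log2 difference was 0.28 over the auxin genes and -0.04 over all genes.

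*IAA9* had the widest difference of the 64 genes. It had 4.60 and 6.66 in ‘CH8’, against 2.37 and 2.61 in ‘CH7’ (log2 difference 3.14, SE 0.52, adjusted p = 0.014). Both ‘CH8’ arrays were above both ‘CH7’ arrays, although they were themselves over 4-fold apart. *IAA24* had 5.99 and 6.54 in ‘CH8’, against 3.80 and 3.94 in ‘CH7’ (2.40, SE 0.38, adjusted p = 0.0127). *IAA18* had 7.01 and 8.14 in ‘CH8’, against 5.79 and 5.87 in ‘CH7’ (1.74, SE 0.32, adjusted p = 0.0201). Like *IAA9*, it had its highest value of all 12 arrays in ‘CH8’ replicate 2.

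*IAA13*, in which a stabilising mutation reduces lateral roots in rice, had 3.56 and 4.49 in ‘CH8’, against 2.04 and 2.64 in ‘CH7’ (1.69, SE 0.32, adjusted p = 0.0231). *IAA23*, known for maintenance of the root quiescent centre, had 5.20 and 4.81 in ‘CH8’, against 3.77 and 3.49 in ‘CH7’ (1.37, SE 0.27, adjusted p = 0.0278). *IAA15* had 5.81 and 6.41 in ‘CH8’, against 4.73 and 5.22 in ‘CH7’ (1.13, SE 0.27, adjusted p = 0.047). In all 3 genes both ‘CH8’ arrays were above both ‘CH7’ arrays, which adds no support, since the genes were called on these arrays. *ARF15*, listed also as *OsETTIN1* after an Arabidopsis factor of flower patterning, was the called response factor, with 6.97 and 7.21 in ‘CH8’, against 5.26 and 5.78 in ‘CH7’ (1.57, SE 0.21, adjusted p = 0.00589).

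Several genes that were not called had wide differences with wide errors. *SAUR39* had 4.93 and 4.19 in ‘CH8’, against 6.65 and 7.62 in ‘CH7’ (-2.58, SE 0.65, adjusted p = 0.0618). It was called lower when dim probe sets were left out and when either array of ‘CH7/8’ was left out. *IAA20* had 3.18 and 5.58 in ‘CH8’, against 2.02 and 1.88 in ‘CH7’ (2.43, SE 0.64, adjusted p = 0.0705). *IAA12* was next to the threshold, at 1.49 (adjusted p = 0.0503). *GH3.5* (*JAR1*) was at -0.99 (adjusted p = 0.103). Apart from *GH3.5*, the *GH3* genes ran between -0.07 and 0.98, and the *PIN* genes between -0.54 and 1.16, with none called. *YUCCA1* was at 0.37 (SE 0.23).

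**Figure D3:**
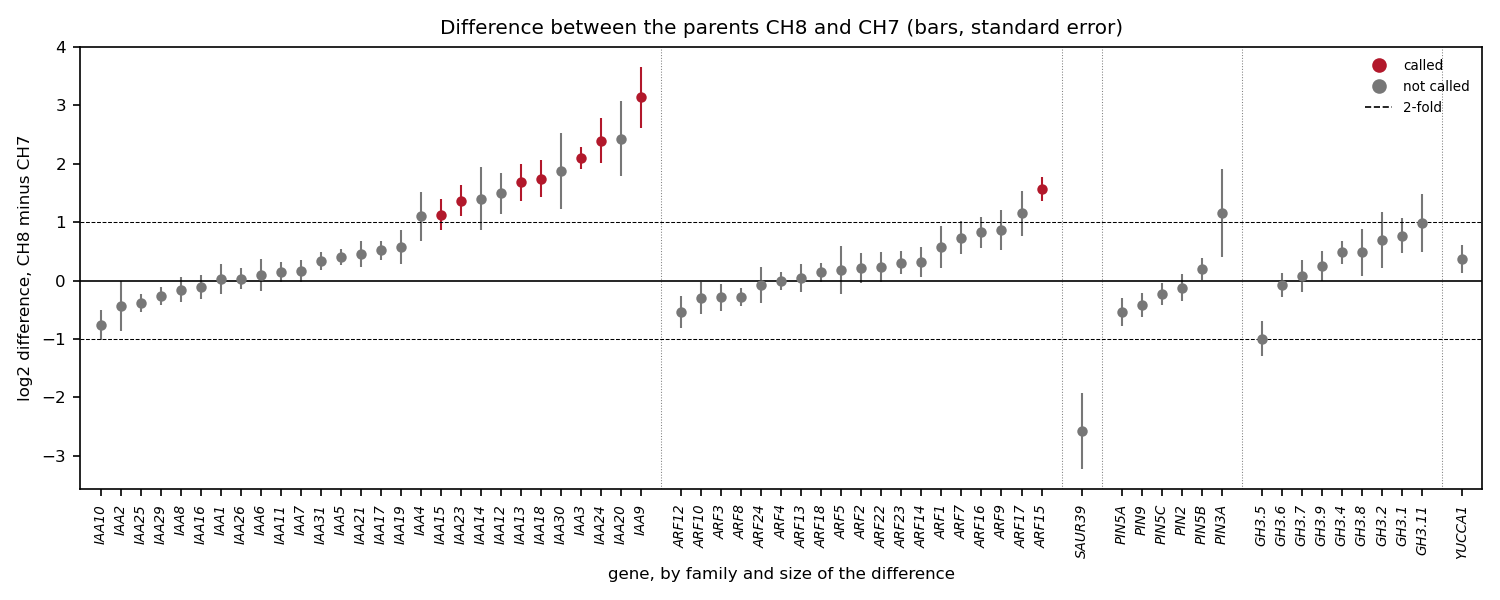
Log2 difference of ‘CH8’ minus ‘CH7’ for the 64 auxin genes, by family and ordered by size, with bars for the standard error and dashed lines at 2-fold. The 8 called genes, in red, are 7 *IAA* genes and *ARF15*, and *SAUR39* lies lowest at -2.58.

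The count of 8 depended on single arrays. It was 1 without ‘CH7’ replicate 1, with *IAA3* alone left. It was 4 without ‘CH7’ replicate 2 (*IAA3*, *IAA13* and *ARF15*, with *IAA30* added) and 4 without ‘CH8’ replicate 2 (*IAA3*, *IAA9*, *IAA18* and *ARF15*). It was 2 (*IAA3* and *IAA24*) with only the 2 lines in the fit and 5 with 8 added to each intensity. *IAA15* kept its call only without ‘CH8’ replicate 1 among the 12 single arrays left out, and *IAA23* lost its call without any 1 array of the 2 lines. With dim probe sets left out the count was 9, without *IAA13* and with *IAA12* and *SAUR39* added. No share of all genes called in the same fits is given beside these counts, so they are not set against all genes. Samples also differed in markers of tissue. The summed intensity of 9 genes of green tissue was 719 to 806 in ‘CH8’ and 1300 to 1321 in ‘CH7’. Of the 9, 8 were lower in ‘CH8’ and 1 higher (median log2 difference -0.56). The brightest by the mean of 12 arrays, *GLO5*, had 7.96 and 7.08 on the log2 scale in ‘CH8’ and 9.20 and 8.98 in ‘CH7’, and weighs most in the sum. The sum of 16 root genes was 127 to 141 in ‘CH8’ and 943 to 1194 in ‘CH7’, after *GRF4*, a grain size gene that had matched a phosphate transporter name, was left out. *NAAT1*, an enzyme of iron uptake, had 4.38 and 4.91 on the log2 scale in ‘CH8’ and 9.94 and 9.69 in ‘CH7’, and the sum of the other 15 was 106 to 111 in ‘CH8’ and 115 to 213 in ‘CH7’. Of the 16, 3 were above the array median in either line, and the root nitrate transporter gene *NRT2.1* was between 1.48 and 1.76 on all 12 arrays, below the first quartile, although the label is whole plant. The part of these differences in the auxin results was not tested.

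The low and high arrays of 6 other auxin genes also separated by the ‘CH8’ genome, as those of *IAA3* did, but by less. In *IAA9*, *IAA17*, *IAA18*, *IAA21*, *IAA24* and *ARF15* all 6 arrays with that genome were above all 6 without it. With *IAA3* this made 7 of 64 genes higher (10.9%) and 0 lower, against 1.27% of all genes higher and 3.08% in either direction. The gap was 0.41 in *IAA9*, where the arrays with the ‘CH8’ genome ran between 3.67 and 6.66 (median 4.05) and those without between 2.37 and 3.27 (median 3.02). It was 0.17 in *IAA18*, 0.08 in *IAA24*, 0.06 in *ARF15*, and 0.03 in both *IAA17* and *IAA21*. Each of these gaps, that of *IAA9* included, was smaller than a distance between replicates of a line in the same gene, unlike the gap of *IAA3*. The same split by the ‘CH7’ genome gave 0 auxin genes (0.952% of all genes), and by the ‘CH9’ genome 0 (0.256%). The summed intensity of the green tissue genes was 651 to 1176 on the arrays with the ‘CH8’ genome and 1117 to 1673 on those without, with 8 of the 9 genes above the array median in every line. The linear intensity of *NAAT1* was 20.8 to 504 with it and 478 to 1025 without it, and the sum of the other 15 root genes was 102 to 136 with it and 115 to 213 without it. Their part in this split was not tested.

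Over all 6 lines together, the F-test called 4 auxin genes (6.25%), against 2.68% of all genes. They were *IAA3* (adjusted p = 0.000826), *IAA18* (0.0269), *IAA24* (0.0391) and *ARF15* (0.0413). At an unadjusted p under 0.05 there were 23 (35.9%), against 21.5% of all genes. *IAA3* alone was left without either array of ‘CH7’, ‘CH9’, ‘CH7/9’ or ‘CH8/9’, and *IAA24* and *ARF15* were lost without either array of ‘CH8’. *ARF15* was also lost with the replicate number as a block.

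In ‘CH7/8’ against ‘CH7’, 1 auxin gene was called, *IAA3*, against 0.331% of all genes. An unadjusted p under 0.05 was reached by 12 higher and 1 lower gene (20.3%), against 14.9% of all genes, and the median difference was 0.27 against -0.04 over all genes. The 12 included 5 other genes called between ‘CH8’ and ‘CH7’. *IAA9* had 3.67 and 4.10 in ‘CH7/8’, against 2.37 and 2.61 in ‘CH7’ (1.40, adjusted p = 0.34). *ARF15* had 6.69 and 6.32 in ‘CH7/8’, against 5.26 and 5.78 in ‘CH7’ (0.99, adjusted p = 0.14). *IAA18* (1.13), *IAA24* (1.26) and *IAA23* (0.71) were the others. The gene on the lower side was *SAUR39*, with 6.59 and 4.35 in ‘CH7/8’, against 6.65 and 7.62 in ‘CH7’, where the replicates of the hybrid were more than 4-fold apart. Without ‘CH7/8’ replicate 1 the hybrid rests on replicate 2 alone, where *IAA24* had 5.79 and *SAUR39* 4.35, against 4.46 and 6.59 in replicate 1. *IAA9* was also called without either array of ‘CH8’. Comparisons with ‘CH7’ share its arrays.

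In ‘CH7/8’ against ‘CH8’, 0 auxin genes were called (0.138% of all genes). An unadjusted p under 0.05 was reached by 3 higher and 10 lower genes (20.3%), against 8.28% of all genes, and 8 of the 10 were *IAA* genes. *IAA13* had 2.89 and 2.46 in ‘CH7/8’, against 3.56 and 4.49 in ‘CH8’ (-1.35, SE 0.32, adjusted p = 0.34 by limma). *IAA20* (-2.14), *IAA9* (-1.74) and *IAA4* (-1.14) were further members of this set, all with ‘CH8’ replicates more than 2-fold apart. Without ‘CH8’ replicate 1 the parent rests on replicate 2 alone, the array with the highest values of *IAA4*, *IAA9*, *IAA12* and *IAA20*. On the higher side *ARF12*, a factor of root elongation in rice, had 7.46 and 8.09 in ‘CH7/8’, against 7.12 and 6.74 in ‘CH8’ (0.84, adjusted p = 0.571).

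‘CH7/9’ is the hybrid without the ‘CH8’ genome. In ‘CH7/9’ against ‘CH7’, 0 auxin genes were called (0.0629% of all genes), and 1 was higher and 3 lower at an unadjusted p under 0.05 (6.25%, against 7.25% of all genes). *SAUR39* had 5.78 and 5.15 in ‘CH7/9’, against 6.65 and 7.62 in ‘CH7’ (-1.68, adjusted p = 0.602). *ARF9* had 8.31 and 8.02 in ‘CH7/9’, against 7.59 and 6.87 in ‘CH7’ (0.94, adjusted p = 0.587). In both genes the arrays of the 2 lines did not overlap, which adds no support, since the genes were named from these values. Against ‘CH9’, 0 were called (0.0461%), and 2 were higher and 4 lower (9.38%, against 12.5%). *PIN5A*, of the *PIN* type that sits at the endoplasmic reticulum, had 6.34 and 6.58 in ‘CH7/9’, against 5.10 and 5.64 in ‘CH9’ (1.09, SE 0.23, adjusted p = 0.179). *ARF17* had 8.03 and 7.11 in ‘CH7/9’, against 8.85 and 8.77 in ‘CH9’ (-1.24, adjusted p = 0.295), and *IAA18* had 5.39 and 5.20, against 6.29 and 6.60 (-1.15, adjusted p = 0.26).

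In ‘CH8/9’ against ‘CH8’, 0 auxin genes were called (0.155% of all genes), and 3 were higher and 7 lower at an unadjusted p under 0.05 (15.6%, against 11.3%). *IAA13* had 2.54 and 2.54 in ‘CH8/9’, against 3.56 and 4.49 in ‘CH8’ (-1.49, SE 0.32, adjusted p = 0.21). *IAA15* had 5.08 and 4.96, against 5.81 and 6.41 (-1.09, adjusted p = 0.261), and *ARF12* had 8.06 and 8.37, against 7.12 and 6.74 (1.29, SE 0.27, adjusted p = 0.197). None of the 3 overlapped between the lines, but they were named from these same values, so this adds no support. Without ‘CH8’ replicate 1 the parent rests on replicate 2 alone, the array with the highest values of *IAA4*, *IAA9*, *IAA12*, *IAA13* and *IAA20*. Of 15 genes of the shoot apex and flower, 13 were above 0 in this comparison (median 0.52, 0 called), with summed intensity of 710 to 1141 in ‘CH8/9’ and 627 to 831 in ‘CH8’. The name pattern also matched *MADS13*, *MADS14*, *MADS15*, *MADS17* and *MADS18*, and *MADS18* and *MADS14* were the brightest of the list in both lines. *MADS1*, a floral regulator, had 2.07 and 4.92 in ‘CH8/9’, against 2.27 and 2.08 in ‘CH8’. *MADS6*, *MADS8* and *MADS17* were likewise higher on replicate 2 of ‘CH8/9’ (3.24, 3.24 and 3.72) than on replicate 1 (1.96, 1.61 and 2.13). The part of these genes in the result was not tested.

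In ‘CH8/9’ against ‘CH9’, 1 auxin gene was called, *IAA3*, against 0.0755% of all genes. Of the 64 genes, 5 higher and 4 lower had an unadjusted p under 0.05 (14.1%, against 7.89% of all genes). *IAA24* had 5.71 and 5.77 in ‘CH8/9’, against 3.94 and 4.39 in ‘CH9’ (1.58, SE 0.38, adjusted p = 0.467). *IAA18* had 7.44 and 7.51, against 6.29 and 6.60 (1.03, adjusted p = 0.652). *GH3.1*, whose enzyme joins auxin to amino acids, had 4.44 and 3.94 in ‘CH8/9’, against 3.24 and 2.96 in ‘CH9’ (1.09, SE 0.30, adjusted p = 0.579). The arrays of the 2 lines did not overlap in these 3 genes, which were named from the same values, so this adds no support.

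Between the other parents, ‘CH9’ against ‘CH8’ gave 1 call, *IAA3* (lower), against 0.717% of all genes. At an unadjusted p under 0.05, 5 auxin genes were higher in ‘CH9’ and 12 lower (26.6%, against 12.6% of all genes), and 11 of the 12 were *IAA* genes. Without ‘CH8’ replicate 1, ‘CH8’ rests on replicate 2 alone, the array with the highest values of *IAA4*, *IAA9*, *IAA12*, *IAA13*, *IAA18* and *IAA20*. *IAA24* was also called without either array of ‘CH7/8’. *IAA24* had 3.94 and 4.39 in ‘CH9’, against 5.99 and 6.54 in ‘CH8’ (-2.10, SE 0.38, adjusted p = 0.0579). *IAA9* had 3.02 and 3.27 in ‘CH9’, against 4.60 and 6.66 in ‘CH8’ (-2.49, SE 0.52, adjusted p = 0.0997). ‘CH9’ against ‘CH7’ gave 0 calls (0.461%), with 5 higher, all *ARF* genes, and 2 lower at an unadjusted p under 0.05 (10.9%, against 12.7%). *ARF1* had 6.52 and 6.37 in ‘CH9’, against 5.29 and 5.49 in ‘CH7’ (1.06, adjusted p = 0.286). *IAA10*, whose product is bound by a protein of rice dwarf virus, had 7.00 and 7.22 in ‘CH9’, against 7.82 and 7.99 in ‘CH7’ (-0.79, adjusted p = 0.265).

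No auxin gene was called against the mid-parent in any hybrid by limma. In ‘CH7/8’, 0 of 64 were called (0.0126% of all genes), and 3 reached an unadjusted p under 0.05 (4.69%, against 4.43%). In ‘CH7/9’, 0 were called (0.0042%) and 4 reached it (6.25%, against 8.98%). In ‘CH8/9’, 0 were called (0.0294%) and 10 reached it, 8 higher and 2 lower (15.6%, against 8.15%). The median over the 64 genes was 0.06 in ‘CH7/8’, against -0.02 over all genes. It was -0.0022 in ‘CH7/9’, against 0.03, and 0.07 in ‘CH8/9’, against 0.02.

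**Figure D4:**
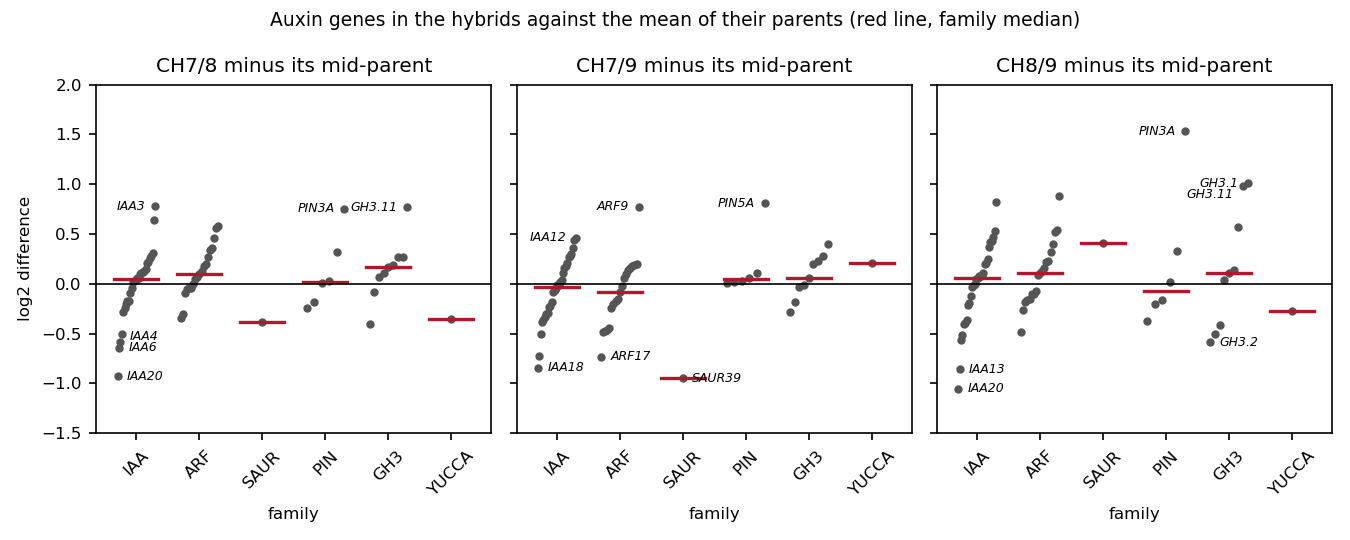
Log2 difference of each hybrid from the mean of its parents for the 64 auxin genes, by family, with the family median in red and the 3 highest and 3 lowest genes named in each hybrid. The family medians of *IAA*, *ARF*, *PIN* and *GH3* lie between -0.08 and 0.17 in all 3 hybrids, and *PIN3A* is highest in ‘CH8/9’ at 1.53.

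In ‘CH8/9’ the genes farthest above the mid-parent were *PIN3A* (1.53, unadjusted p = 0.0435), *GH3.1* (1.01, unadjusted p = 0.00388) and *GH3.11* (0.98, unadjusted p = 0.0484). *PIN3A* encodes an efflux carrier. *GH3.1* was above all 4 arrays of its parents, with 4.44 and 3.94 in ‘CH8/9’, against 3.62 and 2.91 in ‘CH8’ and 3.24 and 2.96 in ‘CH9’. Without ‘CH8’ replicate 2 these 3 differences were 1.04, 0.83 and 0.62, and without ‘CH8’ replicate 1 they were 2.02, 1.18 and 1.34. The lowest were *IAA20* (-1.05), *IAA13* (-0.86) and *GH3.2* (-0.59), for which the high value of ‘CH8’ replicate 2 enters the mid-parent. Without that array they were -0.45, -0.62 and -0.20, and without ‘CH8’ replicate 1 they were -1.65, -1.09 and -0.98. *GH3.2* had 3.72 and 3.76 in ‘CH8/9’, against 3.72 and 5.29 in ‘CH8’ and 3.86 and 4.45 in ‘CH9’.

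In ‘CH7/9’ the highest were *PIN5A* (0.81, unadjusted p = 0.00328, adjusted p = 0.396), *ARF9* (0.77) and *IAA12* (0.46), and the lowest were *SAUR39* (-0.95), *IAA18* (-0.84) and *ARF17* (-0.73). Without ‘CH7/9’ replicate 2, *ARF17* was at -0.27 and *SAUR39* at -0.63. *PIN5A* had 6.34 and 6.58 in ‘CH7/9’, against 6.03 and 5.83 in ‘CH7’ and 5.10 and 5.64 in ‘CH9’, so that both hybrid arrays were above all 4 parent arrays. *IAA18* had 5.39 and 5.20, against 5.79 and 5.87 in ‘CH7’ and 6.29 and 6.60 in ‘CH9’, and both hybrid arrays were below all 4. In ‘CH7/8’ the highest were *IAA3* (0.78), *GH3.11* (0.77) and *PIN3A* (0.75), and the lowest were *IAA20* (-0.93), *IAA6* (-0.64) and *IAA4* (-0.59). *IAA6*, known for drought response and tiller outgrowth in rice, had 7.83 and 7.15 in ‘CH7/8’, against 8.01 and 8.16 in ‘CH7’ and 7.85 and 8.51 in ‘CH8’ (unadjusted p = 0.0265). Without ‘CH7/8’ replicate 2 the difference was 1.03 for *IAA3*, 0.24 for *GH3.11*, -0.37 for *IAA20*, -0.30 for *IAA6* and -0.37 for *IAA4*. Without ‘CH8’ replicate 2 it was 0.82 for *IAA3*, 0.41 for *GH3.11*, 0.26 for *PIN3A*, -0.33 for *IAA20*, -0.47 for *IAA6* and -0.21 for *IAA4*.

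Both arrays of ‘CH7/8’ lay beyond all 4 arrays of its parents in 4 auxin genes, 2 above and 2 below (6.25%, against 7.55% of all genes). In ‘CH7/9’ this was so in 9, 4 above and 5 below (14.1%, against 16.1%), and in ‘CH8/9’ in 12, 10 above and 2 below (18.8%, against 19.3%). These shares are near those of all genes. *IAA25* was above its parents in all 3 hybrids, and its values were 2.74 and 2.81 in ‘CH7/8’, 2.88 and 3.08 in ‘CH7/9’ and 2.70 and 3.02 in ‘CH8/9’, against 2.69 and 2.68 in ‘CH7’, 2.29 and 2.31 in ‘CH8’ and 2.68 and 2.42 in ‘CH9’. It was noticed after the values were seen, and the distance to the nearest parent array was between 0.02 and 0.19. The differences of the hybrids from their mid-parents did not pass when tested against each other. The smallest adjusted p of an auxin gene was 0.46 for ‘CH7/8’ minus ‘CH7/9’, 0.999 for ‘CH7/8’ minus ‘CH8/9’ and 0.177 for ‘CH7/9’ minus ‘CH8/9’.

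**Figure D5:**
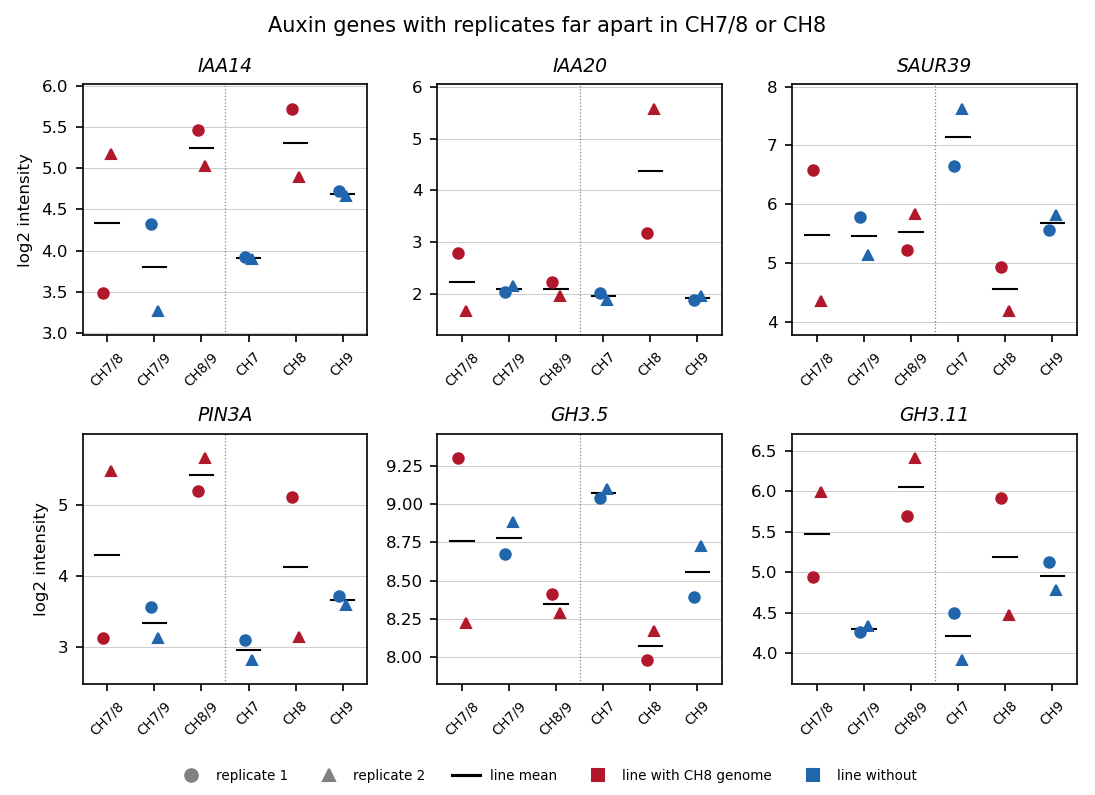
Log2 intensity by array of 6 auxin genes whose replicates lay far apart in ‘CH7/8’ or ‘CH8’, with the hybrids left and the parents right of the dotted line, red for lines with the ‘CH8’ genome and the bar for the mean of the line. *PIN3A* has 3.13 and 5.47 in ‘CH7/8’, and *IAA20* has 5.58 in ‘CH8’ replicate 2 and at most 3.18 on the other arrays.

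*IAA20*, *PIN3A* and *GH3.11* had replicates at least 2-fold apart in both ‘CH7/8’ and ‘CH8’. *PIN3A* had 3.13 and 5.47 in ‘CH7/8’, 3.56 and 3.13 in ‘CH7/9’ and 5.19 and 5.66 in ‘CH8/9’. Among the parents it had 3.10 and 2.83 in ‘CH7’, 5.10 and 3.15 in ‘CH8’ and 3.72 and 3.59 in ‘CH9’. Thus 4 arrays were above 5 and the other 8 were below 4, and the line means of ‘CH7/8’ and ‘CH8’ stood between values that neither replicate had.

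*GH3.11* had its 4 highest values on the same arrays, with 5.99 in ‘CH7/8’ replicate 2, 5.70 and 6.41 in ‘CH8/9’ and 5.91 in ‘CH8’ replicate 1, and between 3.92 and 5.12 on the others. *IAA14* did likewise, with 5.18, 5.47, 5.03 and 5.73 on those 4 arrays and between 3.27 and 4.90 on the others. Without ‘CH7/8’ replicate 2, the difference of *PIN3A* in ‘CH7/8’ from the mid-parent was -0.42 instead of 0.75. Within ‘CH7/8’, *SAUR39* and *GH3.5* parted the other way, with 4.35 and 8.22 in replicate 2 and 6.59 and 9.30 in replicate 1.

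A second set had its highest value on ‘CH8’ replicate 2. *IAA4* had 4.11 there and between 1.64 and 2.73 on the other 11 arrays. *IAA12* had 6.62 there, with 5.25 in ‘CH8’ replicate 1, and *IAA20* had 5.58 there, with 3.18 in ‘CH8’ replicate 1. *GH3.2*, a gene of auxin conjugation, had 5.29 there, with 3.72 in ‘CH8’ replicate 1.

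Other genes of the pathway were taken by name, as genes of auxin synthesis, conjugate breakdown, co-repression and roots, of which 25 of 26 were measured. The list held no auxin carrier. Names alone brought in *LAX1*, listed also as *BHLH123*, and *OsCRL2*, *OsCRL3* and *OsCRL4*, listed also as *HK3*, *HK5* and *CHARK*. The locus named *ASP1* is listed also as *OSAP1*, so its place among the genes of co-repression is not settled here. The shares below count these genes. In ‘CH8’ against ‘CH7’, 2 of the 25 were called higher and 0 lower (8%, against 5.5% of all genes), and 9 were higher and 3 lower at an unadjusted p under 0.05 (48%, against 26%). *WOX11*, a homeobox gene of crown root growth, had 5.51 and 5.77 in ‘CH8’, against 4.39 and 4.64 in ‘CH7’ (1.12, SE 0.26, adjusted p = 0.045). *LBD6*, of the lateral organ boundaries family, had 4.47 and 4.88 in ‘CH8’, against 2.83 and 2.76 in ‘CH7’ (1.88, SE 0.34, adjusted p = 0.0201). Whether these 2 calls hold with single arrays left out was not examined, and *WOX11* lay close to both thresholds. *FIB*, the tryptophan aminotransferase that feeds YUCCA enzymes, had 5.49 and 6.72 in ‘CH8’, against 4.72 and 5.21 in ‘CH7’ (1.14, adjusted p = 0.105). The co-repressor gene *TPR2* had 8.28 and 8.10 in ‘CH8’, against 9.01 and 8.91 in ‘CH7’ (-0.77, adjusted p = 0.0855).

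None of the 25 was called in any other comparison of 2 lines or with a mid-parent. *LA1* (*LAZY1*), which acts in shoot gravitropism, had 3.12 and 3.42 in ‘CH7/9’, against 2.01 and 2.06 in ‘CH7’ (1.24, SE 0.28, unadjusted p = 0.00153, adjusted p = 0.36). The amidohydrolase gene *ILL8*, of the family that frees auxin from its amino acid conjugates, differed between ‘CH7/9’ and ‘CH7’ by 1.81 (adjusted p = 0.317). Both genes had their lowest line mean in ‘CH7’, so these differences are not particular to the hybrid. The parent ‘CH9’ differed from ‘CH7’ by 1.06 in *LA1* and 1.45 in *ILL8*, and ‘CH7/9’ from ‘CH9’ by 0.18 and 0.35. In the F-test over all lines 1 was called, listed as *OsCRL2* (adjusted p = 0.0428). It is also listed as the histidine kinase gene *HK3*, and such kinases are cytokinin receptors rather than auxin genes.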

How the data were processed

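Whole plants at tillering were measured on 12 Affymetrix GeneChip arrays, 2 for each of 6 lines, grouped by the line in the labels. The deposited table gives linear intensity values between 1.58 and 4035. Their methods name RMA with background subtraction and quantile normalization, while the submitters' processing notes name MAS5, so the summary method is not settled here, and neither is its version. The study describes 3 replicates per line, and 2 per line were analysed here. No raw arrays, detection calls or scan dates were used, so background and batch were not examined. The number of arrays limits the precision.

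Log2 was taken without a pseudocount. Gene names came from the array's platform annotation, updated through RefSeq (24080 probe sets had 1 gene, 95 several and 30747 none). A gene was read from its brightest probe set by the mean of 12 arrays, and all 64 had 1. No coordinates are given, since the sources used here name no build of the files, and no sequences were used.

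The fit used limma (3.58.1, under R 4.3.3) with 1 coefficient for each line and all 12 arrays, moderated variances from eBayes, and the Benjamini-Hochberg method across 54922 probe sets. Called means 2-fold or more with an adjusted p no greater than 0.05. This replaced the SAM test of the methods, since 2 against 2 arrays allow 6 permutations. Members, lists and tests were chosen with earlier results of these data known. Named genes were *IAA3*, those called, the 3 highest and 3 lowest against each mid-parent, the brightest of each family and the 5 with the widest range of line means, and further genes were named after their values were seen. Alternatives were a dim filter, a pseudocount of 8, quantile normalization, median centring, gene means, a fit of the compared lines alone, a replicate block and leaving out each array.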

Additional observations from a re-analysis of the deposited data

How the results depend on the processing

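Quantile normalization and median centring moved no count of called auxin genes by more than 1.5 times and reversed no named gene. Averaging the probe sets of a gene could not change the values of the auxin genes, each with 1 probe set, so its unchanged counts add no support. Leaving out dim probe sets, which kept 44 of the 64 genes, gave 2 for ‘CH9’ against ‘CH8’, and 9 for ‘CH8’ against ‘CH7’, of which 7 were shared. A pseudocount of 8 gave 5 for ‘CH8’ against ‘CH7’ and 2 over all 6 lines. Fits of the compared lines alone gave 0 for ‘CH7/8’ against ‘CH7’ (*IAA3* 1.83, adjusted p = 0.27), 0 for ‘CH8/9’ against ‘CH9’ and 2 for ‘CH8’ against ‘CH7’; such fits have fewer samples. Leaving out 1 array in turn, where a lone array was assumed to vary like the other lines, gave 0 to 3 for ‘CH7/8’ against ‘CH7’, 0 to 4 for ‘CH7/8’ against ‘CH8’, 0 to 5 for ‘CH8/9’ against ‘CH8’, 0 to 1 for ‘CH8/9’ against ‘CH9’, 1 to 10 for ‘CH8’ against ‘CH7’, 1 to 7 for ‘CH9’ against ‘CH8’ and 1 to 6 over all lines, and 0 in the other comparisons. The difference of *IAA3* between ‘CH7/8’ and ‘CH7’ ran from 1.58 to 2.08, with 1.91 and 1.75 no longer past the threshold. The highest counts for ‘CH8’ against ‘CH7’, for ‘CH7/8’, ‘CH8/9’ and ‘CH9’ against ‘CH8’, and over all lines came without ‘CH8’ replicate 1. Replicate 2 then stands alone for ‘CH8’, and no share of all genes is given beside any count in this paragraph. *PIN3A* in ‘CH7/8’ against the mid-parent reversed to -0.42 without ‘CH7/8’ replicate 2. Leaving out ‘CH7/8’ replicate 2 and ‘CH8’ replicate 2 together, chosen after seeing the data, gave 11 for ‘CH8’ against ‘CH7’, 2 for ‘CH8/9’ against ‘CH9’, 1 for ‘CH9’ against ‘CH7’ and 4 for ‘CH9’ against ‘CH8’, and against the mid-parent in ‘CH7/8’ reversed *IAA20* to 0.23, *IAA4* to 0.0062, *GH3.11* to -0.12 and *PIN3A* to -0.91. The opposite ends when 1 array was left out were -1.53 for *IAA20*, -0.96 for *IAA4*, 1.29 for *GH3.11* and 1.93 for *PIN3A*. The cause was not tested where none is given.

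Replicate numbers were not taken to pair the samples. Same-numbered deviations correlated above 0.1 in 2 of 15 pairs of lines (range -0.33 to 0.20, across all probe sets), with no reference value for true pairing. With the replicate number as a block, ‘CH9’ against ‘CH8’ gave 2 auxin genes instead of 1, the F-test over all lines gave 3 instead of 4, without *ARF15*, and over all probe sets ‘CH8’ against ‘CH7’ gave 1849 calls instead of 2024. Signal over background could not be judged from the table.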
